A study of Rattus norvegicus with 16 samples.

Results

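Glomus cells, the oxygen-sensing cells of the carotid body, were compared between rats kept for 3 days in hypoxic chambers and rats kept in ambient air. The comparison rests on 8 of the 16 arrays of the series, 4 labelled as hypoxic and 4 as normoxic glomus cells, and covers 30429 probes, of which 18511 name exactly 1 gene. For each of the 18166 genes so named, the probe with the highest mean over the 16 arrays was taken. All rats were Wistar rats, 9 to 11 weeks old. Both carotid bodies were dissected and mixed, the cells were dispersed with enzymes and stained for HNK-1, a sugar epitope of neural crest cells, and the HNK-1 negative fraction was sorted as glomus cells. The other 8 arrays are HNK-1 positive neuroblasts, 4 normoxic and 4 hypoxic, and entered the model for the spread and for the test of the difference between populations. Each array was made from 500 pg of total RNA. The glomus gate is defined by the absence of 1 marker and excludes no other cell type by a marker of its own. Whether replicates are separate animals or pools is not stated, and the p-values therefore measure only how these samples vary. No label dates the arrays, so any processing batch cannot be told apart from oxygen.

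Glomus cells sit in clusters at the carotid bifurcation and are excited when arterial oxygen falls. Low oxygen closes their background and calcium-activated potassium channels, the cell depolarises, calcium enters, and dense-core vesicles release dopamine, ATP and peptides onto the sensory nerve. Their sensing depends on an unusual mitochondrial makeup that is maintained by HIF-2α, the product of Epas1, and during days of hypoxia the whole organ grows. HIF factors are dimers of an oxygen-labile alpha subunit with an ARNT partner, and prolyl hydroxylases of the Egln family mark the alpha subunit for destruction when oxygen is present.

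The glomus label was checked against 15 defining genes. Th, which encodes tyrosine hydroxylase, the rate-limiting enzyme of catecholamine synthesis, had log2 values of 12.56, 12.56, 12.76 and 12.62 in the normoxic glomus arrays and 11.98, 12.20, 12.45 and 11.81 in the hypoxic ones. All 8 values lay near the upper end of the table's range. The mean level of the 15 genes was between 10.71 and 10.91 in the normoxic arrays and between 10.06 and 10.28 in the hypoxic arrays. These genes were thus high in both groups, and the list was lower after hypoxia in every array. Their level was not compared with that in neuroblasts, so the check does not separate the 2 populations. Markers of other cells were present at lower values. The mean over 19 genes of neuroblasts and immature neurons ran from 7.55 to 7.76 in normoxic and from 7.24 to 7.53 in hypoxic glomus arrays. The mean over the 15 macrophage markers ran from 4.90 to 6.63 in normoxia and from 5.97 to 6.59 in hypoxia, and normoxic replicate 1 was the highest of its group for the macrophage gene Csf1r (7.52), the endothelial gene Plvap (8.98) and the T cell and macrophage gene Cd4 (8.27).

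In the limma fit 4102 of 18166 genes passed at an adjusted p under 0.05, 22.6% of those tested, with 1654 higher (9.1%) and 2448 lower (13.5%) in hypoxia. Over all probes 5744 of 30429 passed (18.9%), 2852 higher (9.37%) and 2892 lower (9.5%). The groups did not overlap for 5529 genes (30.4%). Array medians were higher in hypoxia (4.71 to 4.74) than in normoxia (4.42 to 4.64) for glomus cells, and the median difference over genes was 0.12 on the log2 scale. After each array was centred on its own median that difference was -0.09 over genes, 788 genes were higher (4.34%) and 3141 lower (17.3%), and over all probes the split became 1370 higher and 3783 lower. A total of 3236 genes passed in the same direction both ways (17.8%), among them all 2448 that were lower as deposited. Centring lowered the hypoxic differences, so it is a check on rises and adds little for falls. After quantile normalization 4705 probes passed, 2215 higher and 2490 lower. Below, "rose" and "fell" refer to the deposited values, and counts that also hold after centring and in each of the 8 fits that leave out 1 glomus array are given beside them. Counts for a list are to be read against 9.1% and 13.5%.

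The genomic span of a gene and, as deposited, its level moved with the direction of its change, and both are given here because many lists differ in them. Among 18059 genes with a known span in the reference annotation, the shortest 4516 (up to 5.29 kb) held 12.4% that rose and 2.48% that fell, while the longest 4515 (over 46.6 kb) held 4.78% that rose and 22.5% that fell. Among the brighter genes alone, those above the median level, 24.4% of the shortest 2257 rose and 11.1% fell, against 5.05% and 37.6% of the longest 2257. The brightest 7606 probes had a median difference of -0.17 and the dimmest 7609 one of 0.20, which became -0.39 and -0.02 after centring but -0.05 and 0.01 after quantile normalization, so the relation to level depends on the scaling. The part of gene span or level in the differences of any list was not tested.

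**Figure D1:**
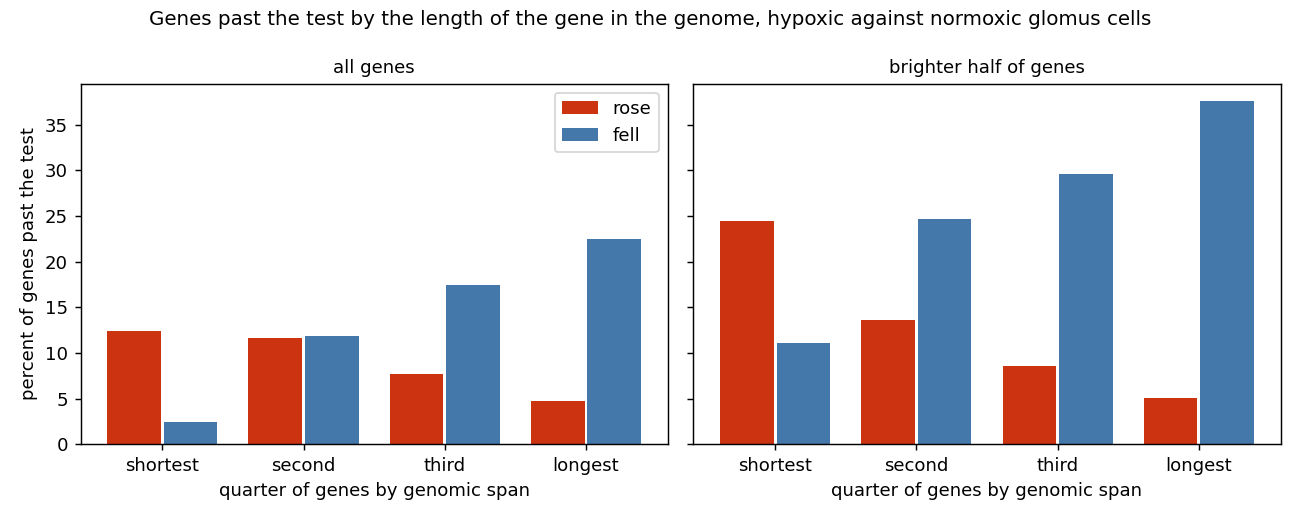
Percent of genes that rose or fell in hypoxic against normoxic glomus cells (adjusted p under 0.05), in 4 classes of genomic span from shortest to longest, for all genes and for those above the median level. The share that rose goes from 12.4% to 4.78% and the share that fell from 2.48% to 22.5% across the classes of all genes.

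Genes of cell division were among the largest rises. Rrm2, the ribonucleotide reductase subunit that makes deoxynucleotides for DNA synthesis, was at 5.32, 6.13, 5.84 and 6.23 in normoxia and at 9.63, 9.40, 9.40 and 9.23 in hypoxia. The groups were far apart, and the difference was 3.54 ± 0.23 (log2, SE, adjusted p = 2.09e-07), an 11.6-fold rise. A second Rrm2 probe, dim in both groups (means of 2.25 and 2.53), differed by 0.28 (adjusted p = 0.44), so the probes disagree. Cks2, a small subunit of cyclin-dependent kinases, went from 4.87, 4.37, 4.46 and 4.68 to 7.58, 7.79, 7.96 and 8.16 (3.28 ± 0.19, adjusted p = 1.08e-07). Cdk1, the kinase that drives entry into mitosis, was at 3.82, 3.97, 3.82 and 3.82 in normoxia and at 7.0, 7.42, 6.81 and 6.56 in hypoxia (3.09 ± 0.32, adjusted p = 1.26e-05). Its normoxic values were nearly the same on all 4 arrays, and every hypoxic array was above them. All 4 normoxic values lay below the array medians (4.42 to 4.64). The proliferation marker Mki67 rose by 2.58 ± 0.27, the kinetochore gene Spc25 by 2.53 ± 0.31, the securin gene Pttg1 by 2.44 ± 0.35 and Cdca3, a trigger of mitotic entry, by 2.37 ± 0.40.

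Of 45 measured genes of mitosis and chromosome segregation 21 rose and none fell (46.7% against 9.1% of all genes), with a median difference of 0.79. A total of 18 also passed after centring and in each leave-one-out fit. Cdkn3 of this list, a phosphatase that acts on cyclin-dependent kinases, was at 7.96, 7.59, 7.86 and 5.74 in hypoxia against 4.12 to 5.22 in normoxia, with hypoxic replicate 4 apart from the other three (2.64 ± 0.40, adjusted p = 0.00022). The median gene of the list spans 22.8 kb, longer than the median of all genes at 17.2 kb. Of 38 DNA replication genes 13 rose and 1 fell, with a median of 0.36, and 7 rose in every one of these fits. Without normoxic glomus replicate 4 the count of rises was 8. The sliding clamp gene Pcna went from 7.40, 7.80, 7.51 and 7.56 to 9.10, 9.28, 8.93 and 9.03 (1.52 ± 0.15, adjusted p = 8.07e-06). Rfc4, a subunit of the clamp loader, rose by 2.40 ± 0.28, the single-strand binding protein gene Rpa3 by 2.21 ± 0.25 and the helicase cofactor gene Cdc45 by 1.27 ± 0.22. The 1 gene that fell was Pold1, a subunit of DNA polymerase delta (-0.78), which was named after its value was seen, and it missed the threshold in 1 of the 8 leave-one-out fits (adjusted p = 0.0513).

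Genes that act before DNA synthesis did not move as a block. Of 23 G1 cyclins, kinases and inhibitors 4 rose and 6 fell, and 2 and 3 did so in every fit. Ccnd1, the cyclin that answers growth factors, went from 5.72, 4.34, 5.47 and 4.66 to 6.53, 6.38, 5.91 and 6.03 (1.17 ± 0.28, adjusted p = 0.00692), while the S-phase kinase gene Cdk2 fell by 1.22 ± 0.30. The neural oncogene Mycn fell from 5.29, 5.61, 5.66 and 5.58 to 4.50, 4.47, 4.93 and 4.60 (-0.91 ± 0.17, adjusted p = 0.00109). With 1 glomus array left out the counts for the list were 2 and 5 without normoxic replicate 2, 2 and 3 without normoxic replicate 3, 2 and 4 without normoxic replicate 4, and 2 and 4 without hypoxic replicate 2.

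Promoters of the mitotic genes share letters that the choice of the list did not use. Matches were sought on both strands in RefSeq promoters of build GRCr8, from 250 bases before to 50 after the start, which were found for 14503 measured genes. The cell cycle homology region, TTTGAA, through which genes are repressed outside mitosis, was in 29 of 39 mitotic promoters (74.4%), in 3 of 32 DNA replication promoters (9.38%) and in 15.9% of all promoters. The CCAAT box, CCAAT, was in 31 of 39 mitotic promoters (79.5%), in 59.4% of those of the replication list and in 38% of all. Shown are the upstream bases of the 3 rising genes, 5′ to 3′ on the strand of the gene, with matches to either motif on either strand in capitals (ATTGG is CCAAT and TTCAAA is TTTGAA read on the opposite strand). The stretch of Cks2 is chr17:13727520-13727664 on the minus strand, that of Cdk1 chr20:19265203-19265292 on the plus strand and that of Spc25 chr3:74396758-74396828 on the minus strand.
Cks2: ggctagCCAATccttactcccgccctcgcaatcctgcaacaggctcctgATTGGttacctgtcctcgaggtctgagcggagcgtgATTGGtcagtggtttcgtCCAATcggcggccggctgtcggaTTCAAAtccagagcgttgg
Cdk1: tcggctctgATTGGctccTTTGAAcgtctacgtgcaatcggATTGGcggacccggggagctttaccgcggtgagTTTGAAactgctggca
Spc25: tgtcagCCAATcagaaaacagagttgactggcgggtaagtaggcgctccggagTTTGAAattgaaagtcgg

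Within the mitotic list the 29 genes with TTTGAA had a median difference of 0.85 (14 rose) and the 10 without it one of 0.70 (3 rose). Over all 2307 genes with TTTGAA in the promoter 9.45% rose and 7.85% fell, against 9.34% and 14.1% of all 14503 genes with a promoter. The match is a description of letters and shows neither binding nor a cause.

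**Figure D2:**
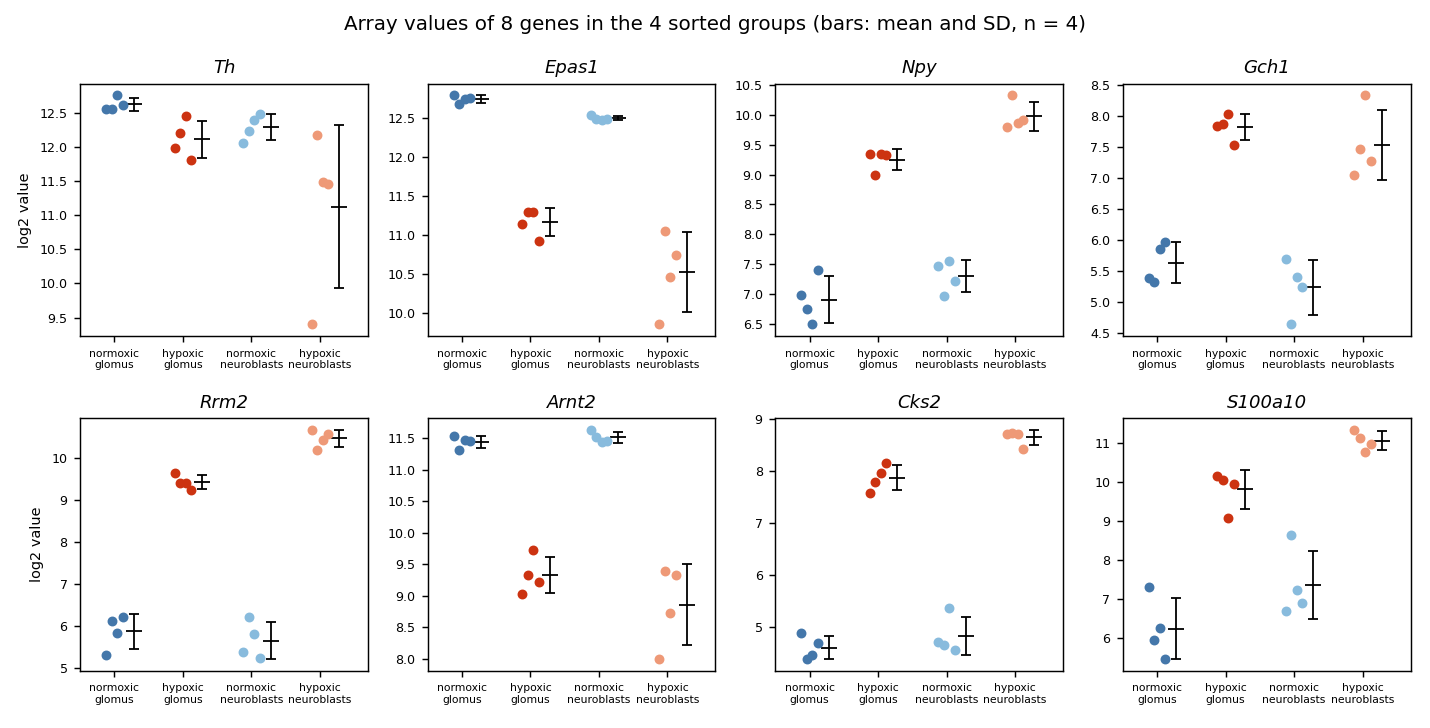
Log2 values of 8 genes on each of the 16 arrays by group, with the mean and SD of 4 arrays beside the points; each panel has its own axis, which does not start at 0. In glomus cells the hypoxic values of Npy, Gch1, Rrm2, Cks2 and S100a10 all lie above the normoxic ones, and those of Th, Epas1 and Arnt2 all lie below.

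Several genes of the HIF machinery were lower after 3 days of hypoxia. Epas1 was at 12.79, 12.68, 12.74 and 12.75 in normoxia and at 11.14, 11.30, 11.30 and 10.92 in hypoxia, a 2.98-fold fall (-1.57 ± 0.20, adjusted p = 5.23e-05). Arnt2, the neural partner of the alpha subunits, went from 11.53, 11.31, 11.47 and 11.46 to 9.03, 9.33, 9.72 and 9.22 (-2.12 ± 0.24, adjusted p = 2.71e-05). In both genes the groups were separate with a wide gap. The common partner gene Arnt fell by 1.08 ± 0.26, with hypoxic replicate 1 lowest at 5.86, and the prolyl hydroxylase gene Egln2 fell by 0.88 ± 0.21. Of 10 measured HIF subunits and hydroxylases 6 fell and 1 rose, with a median of -0.86, and the 4 falls just given held after centring and in each leave-one-out fit. Hif1an, the asparaginyl hydroxylase that limits HIF activity, fell by 1.32 ± 0.36 but reached an adjusted p of 0.0585 without normoxic glomus replicate 4. The Hif1a value was lower by 0.84 ± 0.25 (adjusted p = 0.0264), missed the threshold in 3 of the 8 leave-one-out fits and reached 0.104 there. The 1 rise was that of Egln1, the main oxygen-sensing hydroxylase and itself a HIF target, at 6.83, 7.07, 7.09 and 7.09 in normoxia and 7.99, 8.26, 8.17 and 8.13 in hypoxia. The groups did not overlap and the difference was 1.12 ± 0.37 (adjusted p = 0.0448), which was 0.168 after centring and passed in none of the 8 leave-one-out fits. The error rests on the spread estimated over all 4 groups, which is wider for this gene than the spread within either glomus group. Vhl (-0.62), Egln3 (0.47) and Hif3a (0.26) did not pass.

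Genes that HIF is known to switch on did not rise as a group. Of 24 measured targets outside glycolysis 3 rose and 5 fell, with a median of 0.20, and after centring 1 rose and 7 fell. Higd1a, a mitochondrial protein induced by hypoxia, went from 7.38, 7.99, 7.39 and 7.60 to 8.84, 8.79, 8.70 and 8.61 (1.15 ± 0.19, adjusted p = 0.000517) and was the only rise kept in every fit. Adm, which encodes the vasodilator adrenomedullin, was at 11.26, 11.22, 11.26 and 11.57 in normoxia and at 9.79, 9.60, 10.39 and 9.67 in hypoxia (-1.47 ± 0.27, adjusted p = 0.000888). The stress gene Ndrg1 fell by 1.27 ± 0.17 and Car12, a carbonic anhydrase of the cell surface, by 1.97 ± 0.28 (adjusted p = 0.000145). The gene Pfkfb3, for an enzyme that makes an activator of phosphofructokinase, was at 5.44, 4.89, 5.49 and 5.42 in normoxia and at 4.36, 4.77, 4.70 and 4.55 in hypoxia (-0.72 ± 0.19, adjusted p = 0.0131), so that the lowest normoxic array lay just above the highest hypoxic one. Vegfa, the growth factor of blood vessels, was at 11.01 to 11.14 in normoxia with a difference of -0.22 (adjusted p = 0.46). The other 2 rises, P4ha1 (0.59) and Stc2 (0.47), and the fifth fall, Pfkfb4 (-0.79), were named after their values were seen. Rises in the list numbered 1 without normoxic replicate 2, 3 or 4, and 1 without hypoxic replicate 1, 2 or 3.

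Of 19 genes of glycolysis and pyruvate entry 1 rose and 4 fell, with 1 and 3 kept in every fit. Slc2a3, the neuronal glucose transporter, went from 10.55, 10.51, 10.50 and 10.37 to 8.52, 8.97, 9.16 and 8.30 (-1.75 ± 0.39, adjusted p = 0.00454). The monocarboxylate importer gene Slc16a1 fell by 1.30 ± 0.22, whereas Slc16a3, the lactate exporter, rose from 5.62, 5.74, 5.37 and 5.51 to 6.33, 6.93, 6.02 and 6.54 (0.89 ± 0.22, adjusted p = 0.00824). Pdha1, which feeds pyruvate into the citric acid cycle, fell by 0.75 ± 0.18. Pfkm, the muscle-type phosphofructokinase, fell by 0.66 ± 0.18 (adjusted p = 0.0142) but missed the threshold in 3 of the 8 leave-one-out fits. Ldha, which turns pyruvate into lactate, differed by -0.17 (adjusted p = 0.674) and Slc2a1, the widespread glucose transporter, by -0.53 (adjusted p = 0.0902). Both, and Vegfa above, were named after their values were seen.

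The core of the hypoxia response element was sought in the form ACGTG only, which is present in many of these promoters. It was found in 12 of 19 HIF target promoters (63.2%), in 10 of 17 of the glycolysis list (58.8%) and in 21.8% of all promoters. Shown because they hold the core in genes that fell or did not pass are stretches upstream of Pfkfb3 (chr17:71944873-71944932, plus strand), Slc2a1 (chr5:138002452-138002501, plus strand) and Ldha (chr1:106507992-106508041, plus strand), with the core on either strand in capitals. A palindrome CACGTG holds the core on both strands.
Pfkfb3: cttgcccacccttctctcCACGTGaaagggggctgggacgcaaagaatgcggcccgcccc
Slc2a1: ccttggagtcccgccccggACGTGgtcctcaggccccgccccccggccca
Ldha: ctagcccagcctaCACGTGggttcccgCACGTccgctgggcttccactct

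Among the genes of both lists 21 with ACGTG had a median difference of 0.15 (2 rose, 4 fell) and 14 without it one of -0.08 (2 rose, 3 fell). Other forms of the core were not sought and may be present among the 14. Nothing about HIF binding in these cells follows from the letters.

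Many nuclear genes for subunits of the respiratory chain and of the mitochondrial ribosome rose. Of 32 measured complex I genes 27 rose and none fell (84.4%), with a median of 0.85 as deposited and 0.63 after centring, and 18 were kept in every fit. After centring 18 rose and 1 fell. Ndufb6, an accessory subunit, went from 7.47, 8.53, 7.84 and 7.27 to 9.95, 9.70, 9.30 and 9.70 (1.89 ± 0.27, adjusted p = 0.000138). Ndufb3 was at 10.79, 10.86, 10.67 and 10.73 in normoxia and at 11.74, 11.68, 11.69 and 11.79 in hypoxia (0.96 ± 0.14, adjusted p = 0.000125). The spread within each group of Ndufb3 was small beside the gap between them. A second probe of Ndufb3 differed by 0.92 (adjusted p = 0.000461), while for Ndufv3, which rose by 1.22 ± 0.17, a second probe differed by 0.56 (adjusted p = 0.098). These are short genes, with a median span of 7.13 kb, and of the brighter genes up to 9.09 kb 24.4% rose.

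Of 30 genes of complexes III to V 19 rose and none fell, 14 in every fit. Uqcrq of complex III went from 8.45, 8.40, 8.22 and 8.50 to 10.27, 9.63, 9.82 and 9.87 (1.5 ± 0.19, adjusted p = 5.74e-05). The cytochrome oxidase gene Cox5a rose by 1.20 ± 0.17 and the ATP synthase ring gene Atp5mc1 by 1.30 ± 0.18. Of 39 genes of the mitochondrial ribosome, which makes the proteins encoded in the organelle, 22 rose and none fell, with 15 rises in every fit, among them Mrpl32 (1.57 ± 0.17, adjusted p = 1.75e-05) and Mrpl23 (1.64 ± 0.22). The median spans of these lists were 6.36 kb and 7.62 kb.

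The enzymes of the citric acid cycle did not follow the respiratory chain. Of 18 genes 4 rose and 5 fell, and after centring none rose and 6 fell. Pc, pyruvate carboxylase, which refills the cycle and is abundant in glomus cells, went from 11.31, 11.30, 11.40 and 11.51 to 9.87, 9.39, 10.09 and 9.41 (-1.69 ± 0.25, adjusted p = 0.000204). The 2-oxoglutarate dehydrogenase gene Ogdh fell by 1.59 ± 0.29 and the citrate synthase gene Cs by 1.26 ± 0.23. Mdh2, malate dehydrogenase, rose by 0.78 ± 0.17 as deposited (adjusted p = 0.0041), but its adjusted p was 0.071 after centring, and that of the succinate dehydrogenase subunit Sdhd (0.76 ± 0.18) was 0.0757.

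Among 11 genes listed as atypical mitochondrial or oxygen-sensing, not all of them particular to glomus cells, 4 rose and 1, Pc, fell. Cox4i2, the hypoxia-type isoform of cytochrome oxidase subunit 4, went from 11.05, 10.94, 11.02 and 10.96 to 11.97, 11.84, 11.87 and 11.72 (0.86 ± 0.17, adjusted p = 0.00193), while the common isoform gene Cox4i1 differed by 0.38 (adjusted p = 0.355). Ndufa4, a cytochrome oxidase subunit, rose by 0.80 ± 0.15, and Ndufa4l2, which takes its place in hypoxic cells, was at 11.40, 11.37, 11.70 and 11.34 in normoxia and 10.95, 10.62, 11.00 and 10.86 in hypoxia (-0.60 ± 0.21, adjusted p = 0.0588, and 0.0297 after centring). Cox8a rose by 0.60 ± 0.18 as deposited, but its adjusted p was 0.251 after centring and it passed in 4 of the 8 leave-one-out fits.

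Protein synthesis and turnover gave a mixed picture. Of 34 cytosolic ribosomal protein genes 13 rose and 1 fell, 6 of the rises in every fit, and these are the shortest genes examined, with a median span of 3.13 kb. Rps16 went from 7.36, 7.79, 7.80 and 7.67 to 9.56, 9.58, 9.14 and 8.89 (1.64 ± 0.19, adjusted p = 2.83e-05). Probes of ribosomal genes can also match pseudogene copies, so single values are uncertain. Leaving out normoxic replicate 1, 3 or 4 or hypoxic replicate 1 left 8 rises. Of 30 proteasome genes 8 rose and 4 fell, 2 and 3 in every fit. Psmd2, a subunit of the regulatory cap, went from 9.68, 9.65, 10.03 and 9.92 to 8.03, 8.12, 8.42 and 7.78 (-1.73 ± 0.22, adjusted p = 4.8e-05), while Psmd14, the deubiquitinase of the same cap, rose from 7.81, 8.08, 7.61 and 7.40 to 9.21, 9.14, 9.09 and 8.96 (1.38 ± 0.17, adjusted p = 5.13e-05). Both differences were clear of the replicate spread and opposite in sign. The proteasome counts were 5 and 3 without normoxic replicate 1 or 4 and without hypoxic replicate 1 or 2.

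Several chaperones of the endoplasmic reticulum fell. Of 26 measured genes of the unfolded protein response 11 fell and 4 rose, with a median of -0.39, and 6 falls and 1 rise were kept in every fit. Calr, the calcium-binding chaperone calreticulin, was at 9.96, 10.36, 10.45 and 10.61 in normoxia and at 8.88, 8.41, 8.30 and 8.38 in hypoxia (-1.85 ± 0.21, adjusted p = 2.71e-05), and the groups did not overlap. The disulfide isomerase gene P4hb fell by 1.19 ± 0.20, Hyou1, a chaperone named for its induction by oxygen loss, by 1.40 ± 0.24, and Herpud1, which serves the degradation of misfolded proteins, by 1.17 ± 0.19. Trib3, a pseudokinase induced in prolonged stress, rose from 4.42, 4.80, 4.90 and 4.32 to 6.04, 5.14, 5.43 and 6.09 (1.06 ± 0.24, adjusted p = 0.00396). Without normoxic replicate 4 the counts were 7 falls and 2 rises, and without hypoxic replicate 1 they were 9 and 2.

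The stress element of these promoters, CCAAT and CCACG separated by 9 bases, sought on both strands, contains a CCAAT box by construction. It was in 7 of 21 promoters of the list (33.3%) and in 0.117% of all, 17 genes. The 7 were Calr, Canx, Creld2, Dnajc3, Hsp90b1, Hspa5 and Xbp1. Shown are Hspa5 (chr3:38452956-38453015, plus strand), Calr (chr19:40213127-40213176, plus strand) and Xbp1 (chr14:84604543-84604602, plus strand), with the fixed letters of the element in capitals. In Calr it lies on the opposite strand.
Hspa5: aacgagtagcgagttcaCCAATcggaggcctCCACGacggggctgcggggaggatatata
Calr: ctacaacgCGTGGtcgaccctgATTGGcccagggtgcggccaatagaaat
Xbp1: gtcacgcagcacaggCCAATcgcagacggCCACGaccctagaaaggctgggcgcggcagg

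The 7 genes with the element had a median difference of -0.64 and 4 of them fell, while the 14 without it had a median of 0.03 with 4 falls and 4 rises. Over all 17 genes with the element, which include the 7 of the list, the median was -0.55, with 7 of 17 falling and none rising. Of all 14503 genes with a promoter 14.1% fell and 9.34% rose. Here too the letters show neither binding nor a cause. Hspa5, the master chaperone of the compartment, differed by -0.85 (adjusted p after centring 0.00471), and Xbp1, a transcription factor of the response, by -0.94 but passed in 4 of the 8 leave-one-out fits only. These genes were chosen after their values were seen.

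Among the catecholamine genes 4 of 11 measured fell, none rose, and 1 of the 4, Ddc, encodes an enzyme of synthesis. Th, whose values are given above, did not overlap between the groups and differed by -0.51 ± 0.39, an adjusted p of 0.38. That p rests on the spread estimated over all 4 groups, which is wide for this gene and wider than within either glomus group. The next enzyme, Ddc, fell from 11.34, 11.33, 11.54 and 11.62 to 10.67, 10.89, 11.00 and 10.72 (-0.64 ± 0.17, adjusted p = 0.0132). Cyb561, the vesicle membrane protein that supplies electrons for noradrenaline synthesis, went from 10.28, 10.08, 10.48 and 10.29 to 7.74, 8.21, 8.32 and 8.74 (-2.03 ± 0.23, adjusted p = 2.02e-05). Maoa, which breaks catecholamines down, fell by 1.44 ± 0.25, and the noradrenaline transporter gene Slc6a2 by 1.35 ± 0.31 with hypoxic replicate 2 lowest at 3.79. The median gene of this list spans 41 kb. The vesicular transporter genes Slc18a1 (0.17) and Slc18a2 (-0.13) did not pass, nor did Dbh (-0.97, adjusted p = 0.0595).

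The cofactor tetrahydrobiopterin is made from GTP, and its first enzyme is encoded by Gch1. That gene was at 5.39, 5.33, 5.86 and 5.97 in normoxia and at 7.84, 7.88, 8.03 and 7.53 in hypoxia, a 4.54-fold rise (2.18 ± 0.27, adjusted p = 4.48e-05) with no overlap. The last enzyme of synthesis, Spr, rose from 8.10, 8.28, 8.44 and 8.35 to 9.18, 9.58, 9.06 and 9.10 (0.94 ± 0.17, adjusted p = 0.000837). Pts, the enzyme between them, rose by 0.95 ± 0.24 as deposited (adjusted p = 0.00866, and 0.0746 after centring). Qdpr, which recycles the cofactor, differed by -0.37 (adjusted p = 0.292) and the feedback regulator gene Gchfr by 0.63 (adjusted p = 0.0985). So all 3 measured enzymes of synthesis rose, and 2 did so in every fit.

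Of 30 neuropeptide precursors 2 rose and 1 fell. Npy, the vasoconstrictor and sympathetic co-transmitter neuropeptide Y, went from 6.99, 6.74, 6.49 and 7.40 to 9.34, 8.99, 9.34 and 9.33, a 5.08-fold rise (2.35 ± 0.20, adjusted p = 5.89e-06). Tac3, the precursor of neurokinin B, went from 8.04, 8.70, 6.97 and 6.74 to 10.84, 10.25, 10.18 and 10.25 (2.77 ± 0.36, adjusted p = 6.75e-05), with a wide normoxic spread and no overlap. The precursor that fell was Adm. Cartpt was at 8.42, 9.20, 8.70 and 9.06 in normoxia and at 10.22, 9.21, 9.87 and 9.78 in hypoxia (0.93 ± 0.32, adjusted p = 0.0525).

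Cargo and cutting enzymes of the dense-core granule were mostly without a difference past the threshold. Of 12 genes 1 rose and 1 fell. The secreted granin Vgf went from 5.0, 4.22, 4.02 and 4.47 to 6.02, 5.47, 5.94 and 5.73 (1.36 ± 0.26, adjusted p = 0.00133), and Furin, a protease that cuts prohormones, from 9.29, 9.15, 9.17 and 9.09 to 8.21, 8.05, 8.13 and 8.08 (-1.06 ± 0.22, adjusted p = 0.00218). Differences of Chga (-0.11), Chgb (-0.08), Scg2 (-0.09), Scg3 (-0.12) and Scg5 (0.07) did not pass.

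Of 29 genes of vesicle priming and exocytosis 10 fell (34.5%) and 1 rose, with a median of -0.46, and 9 falls were kept in every fit. The median gene of the list spans 73.3 kb, and of the brighter genes over 55.9 kb 37.6% fell. Syt1, the calcium sensor of fast release, went from 11.46, 11.44, 11.50 and 11.62 to 10.03, 10.60, 10.27 and 10.41 (-1.18 ± 0.17, adjusted p = 0.000156). Unc13b, which primes vesicles, fell from 7.99, 8.13, 8.49 and 8.36 to 6.83, 6.41, 6.54 and 6.24 (-1.74 ± 0.25, adjusted p = 0.000159). The vesicle protein gene Syp fell by 1.22 ± 0.24 and the granule GTPase genes Rab3c and Rab27a by 0.97 ± 0.17 and 0.94 ± 0.19. The 1 rise, of Sv2b (0.74), was named after its value was seen and passed in 2 of 8 leave-one-out fits and not after centring.

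**Figure D3:**
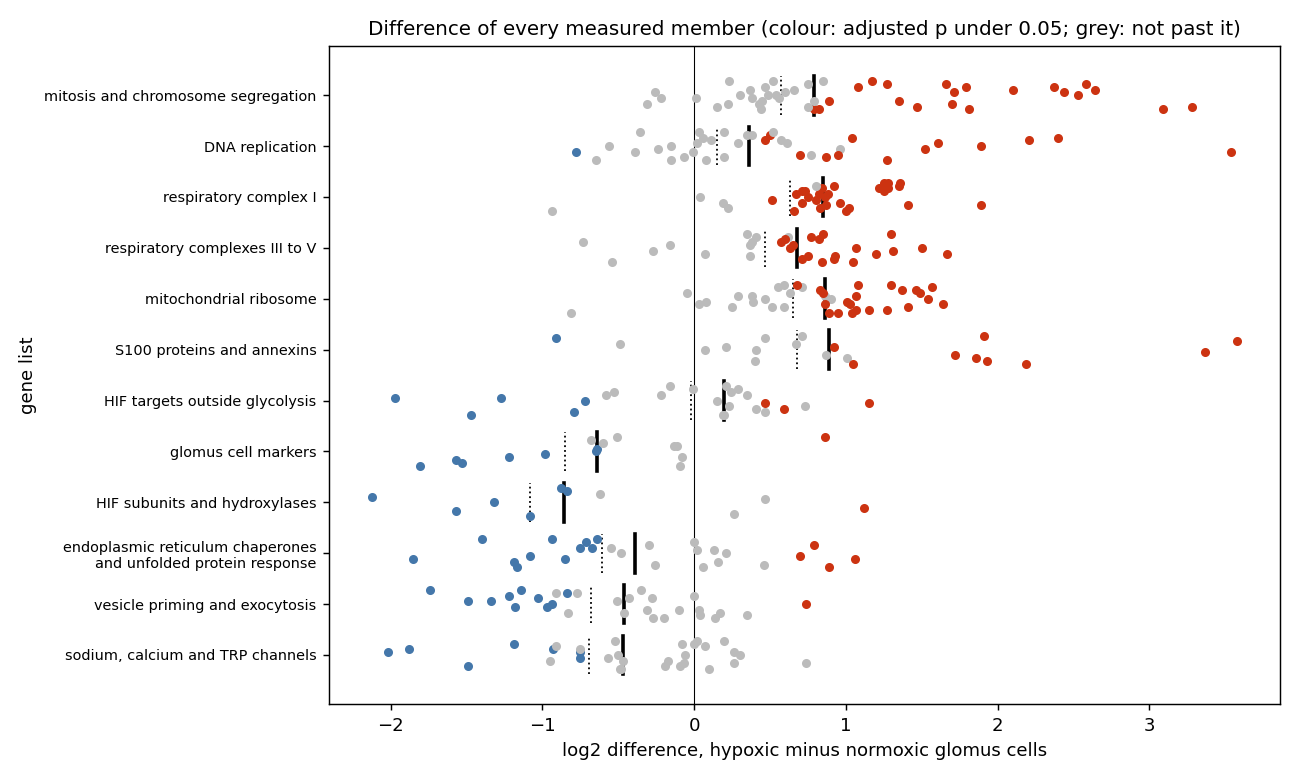
Log2 difference, hypoxic minus normoxic glomus cells, of every measured gene in 12 lists, in colour where the adjusted p was under 0.05; the solid bar is the median of the list as deposited and the dotted bar after centring. Complex I lies to the right of 0 with 27 genes in colour, and the exocytosis list lies mainly to the left with 10 falls and 1 rise.

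Ion channels set and carry the receptor potential. Of 30 potassium channel genes 6 fell (20%) and 3 rose (10%), near the 13.5% and 9.1% of all genes, with a median difference of 0.04, and after centring 6 fell and none rose. Kcnh2, the ERG channel that helps to set the resting potential, went from 8.37, 8.04, 8.33 and 8.20 to 5.93, 5.76, 5.91 and 6.20 (-2.29 ± 0.21, adjusted p = 6.57e-06). Kcnk9, which encodes the acid-sensitive and oxygen-sensitive background channel TASK-3, was between 9.62 and 10.14 in normoxia and at 7.82, 8.91, 8.35 and 8.51 in hypoxia (-1.53 ± 0.22, adjusted p = 0.000143). Its partner Kcnk3, TASK-1, was at 8.21, 8.31, 8.08 and 7.99 against 7.60, 7.33, 7.67 and 7.38 (-0.65 ± 0.20, adjusted p = 0.0299), and passed in 3 of the 8 leave-one-out fits. Kcnma1, the large calcium-activated channel, fell by 0.83 ± 0.20 and Kcnq3, a subunit of the M current, by 1.47 ± 0.20. Rises in the list numbered 1 without normoxic replicate 2 or 4 or hypoxic replicate 3.

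Of 31 sodium, calcium and TRP channel genes 7 fell (22.6%, against 22.5% of all genes in the longest class of span) and none rose, with a median of -0.47, and all 7 were kept in every fit. Trpc5, a cation channel of the plasma membrane, went from 9.71, 9.59, 9.72 and 9.79 to 7.73, 7.54, 7.58 and 7.90 (-2.02 ± 0.19, adjusted p = 6.57e-06). The calcium channel subunit genes Cacnb3 and Cacna2d2 fell by 1.88 ± 0.29 and 1.49 ± 0.25, the pore gene Cacna1b of the N-type channel by 0.93 ± 0.20, and the sodium leak channel gene Nalcn by 1.19 ± 0.20. The median span of this list, 131 kb, is the longest of the 41 lists.

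For receptors of the transmitters released in the carotid body the counts were near or below the shares of all genes, 9.1% risen and 13.5% fallen. Of 16 adenosine and ATP genes 2 rose and 2 fell (12.5% each). Among acetylcholine receptors 0% rose and 14.3% fell, and among those for monoamines, GABA and glutamate 0% and 4.35%. Adora2a, the stimulatory adenosine receptor of glomus cells, was at 9.85, 9.63, 10.61 and 10.54 in normoxia and at 8.27, 8.44, 8.39 and 8.27 in hypoxia (-1.81 ± 0.41, adjusted p = 0.00436), and the adenosine carrier gene Slc29a1 fell by 0.94 ± 0.21. The inhibitory receptor gene Adora1 differed by 0.52 and the adenosine-forming enzyme gene Nt5e by 0.47, but neither passed after centring and they passed in 2 and in none of the 8 leave-one-out fits. Chrna7, the homomeric nicotinic receptor, went from 9.52, 9.86, 9.89 and 9.97 to 7.94, 7.07, 7.88 and 8.10 (-2.06 ± 0.23, adjusted p = 2.19e-05). It was the 1 of 14 acetylcholine receptor genes kept in every fit. A second, Chrnb2 (-1.13 ± 0.33, adjusted p = 0.022), passed in 4 of the 8 leave-one-out fits. Of 23 receptors for monoamines, GABA and glutamate 1 fell, the GABA-B receptor gene Gabbr1 (-0.94 ± 0.26, adjusted p = 0.0156), which missed the threshold without normoxic replicate 3 and without hypoxic replicate 2 and reached 0.0628 there. Its groups overlapped, with hypoxic replicate 1 at 7.72 above the lowest normoxic array at 7.51.

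Of 27 peptide receptor genes 4 fell (14.8%) and 3 rose (11.1%), near the 13.5% and 9.1% of all genes. Sstr1, a somatostatin receptor, was at 9.16, 9.17, 9.39 and 9.00 in normoxia and at 7.43, 4.52, 6.01 and 5.22 in hypoxia, the largest fall among genes with an established symbol kept in every fit (-3.38 ± 0.42, adjusted p = 4.98e-05). Agtr2, the type 2 angiotensin receptor, went from 8.87, 7.99, 9.07 and 8.43 to 5.80, 6.95, 5.09 and 7.13 (-2.35 ± 0.53, adjusted p = 0.00444), with a wide hypoxic spread. The neuropeptide Y receptor gene Npy1r fell by 1.35 ± 0.31 while its ligand gene rose. Ramp2, the partner of the adrenomedullin receptor, rose from 4.47, 3.65, 4.19 and 4.18 to 5.30, 5.35, 5.42 and 5.62 (1.30 ± 0.26, adjusted p = 0.00196), and the galanin receptor gene Galr2 rose by 0.78 ± 0.17.

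Downstream of the receptors, of 37 G protein, cAMP and RGS genes 10 fell (27%) and 6 rose (16.2%), 10 and 3 in every fit. The median gene of this list spans 69.2 kb, and of all genes in the longest class of span 22.5% fell. Adcy1, a calcium-stimulated adenylyl cyclase, went from 8.53, 8.11, 8.85 and 9.00 to 6.28, 6.59, 5.49 and 5.96 (-2.54 ± 0.25, adjusted p = 9.66e-06). Prkacb, a catalytic subunit of protein kinase A, fell by 2.07 ± 0.28, the phosphodiesterase gene Pde1b by 2.21 ± 0.24 and the G protein gene Gnaq by 1.58 ± 0.19. The regulator gene Rgs5, a marker of glomus cells as well as of pericytes, fell from 12.64, 12.79, 12.78 and 12.85 to 11.58, 11.78, 11.84 and 11.93 (-0.98 ± 0.15, adjusted p = 0.000275). Gngt2, a gamma subunit, rose from 5.65, 6.02, 6.49 and 6.81 to 8.71, 8.82, 8.16 and 8.42 (2.29 ± 0.30, adjusted p = 6.09e-05). Together with Epas1, Kcnk9, Syp, Adora2a, Ddc and Kcnk3, Rgs5 makes up the 7 of 15 glomus markers that fell, of which 6 were kept in every fit, and Cox4i2 is the 1 that rose.

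Transcription factors of the sympathoadrenal lineage were lower or did not pass. Of 14 measured genes 5 fell and none rose, and 3 were kept in every fit. Isl1 went from 9.33, 9.61, 9.29 and 9.03 to 8.29, 7.14, 8.37 and 7.74 (-1.43 ± 0.27, adjusted p = 0.00131), Sox4 fell by 0.87 ± 0.20 and Tbx20 by 0.75 ± 0.16. The counts were 3 without normoxic replicate 3 and 3 without hypoxic replicate 2, where Eya1 (-0.94) and other members missed the threshold. Among 19 genes of immature neurons 5 fell and 1 rose. Dpysl3, a cytoskeletal protein of growing axons, went from 12.03, 11.79, 11.63 and 11.76 to 9.84, 10.08, 10.12 and 9.79 (-1.84 ± 0.26, adjusted p = 0.000107). The imprinted gene Nnat, which encodes a small membrane protein of the endoplasmic reticulum, rose from 6.68, 6.91, 7.10 and 7.38 to 9.94, 9.89, 9.62 and 10.26 (2.91 ± 0.27, adjusted p = 6.57e-06). A second probe of Nnat differed by 2.08 (adjusted p = 0.000134).

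Redox genes divided. Of 30 measured 5 rose and 6 fell, 3 and 3 in every fit. The peroxiredoxin genes Prdx4 and Prdx1 rose by 1.5 ± 0.20 and 1.40 ± 0.25 and the thioredoxin gene Txn1 by 0.90 ± 0.15. Txnrd1, the reductase that recharges thioredoxin, went from 5.11, 5.64, 5.76 and 5.52 to 4.27, 4.47, 3.59 and 4.35 (-1.34 ± 0.21, adjusted p = 0.000294), and the glutathione synthesis gene Gclc fell by 1.43 ± 0.30. Without normoxic replicate 4 the list held 4 rises and 3 falls.

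Immediate early genes are switched on within minutes of a stimulus, tissue dissociation included. Jun went from 11.34, 11.39, 11.26 and 10.90 to 9.77, 9.67, 9.84 and 9.17 (-1.61 ± 0.27, adjusted p = 0.000484), though a second, dimmer probe differed by -0.78 (adjusted p = 0.0817). The phosphatase gene Dusp1 fell by 1.77 ± 0.32 and Fosb by 1.15 ± 0.27. Of 22 genes 5 fell and 3 rose, and 3 falls and 1 rise, of Ier3 (0.87 ± 0.21), were kept in every fit. The falls numbered 3 without normoxic replicate 2, 3 or 4 or hypoxic replicate 2 or 4, and the rises numbered 1 without normoxic replicate 4 or hypoxic replicate 1.

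S100 proteins and annexins, small calcium-binding proteins and their membrane-binding partners, held the largest rise among the genes kept in every fit. S100a10, the partner of annexin A2, was at 7.31, 5.94, 6.24 and 5.45 in normoxia and at 10.16, 10.06, 9.08 and 9.96 in hypoxia (3.58 ± 0.40, adjusted p = 2.16e-05). S100a11 went from 2.42, 1.82, 3.00 and 2.42 to 5.92, 6.16, 4.92 and 6.13 (3.37 ± 0.47, adjusted p = 0.000116) and S100a4 rose by 1.91 ± 0.28. The normoxic values of S100a11 lay far below the array medians (4.42 to 4.64), so the size of its rise is uncertain. Of 20 genes 9 rose and 1 fell, with a median of 0.89, and 8 rises were kept in every fit. Several of these genes are also expressed by macrophages and other non-neural cells, whose markers are given below.

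Of 15 macrophage markers 5 rose and none fell, with a median of 0.74. Aif1 was at 6.03, 4.96, 5.12 and 4.11 in normoxia and at 7.60, 7.34, 6.34 and 7.66 in hypoxia (2.18 ± 0.37, adjusted p = 0.000517). Tyrobp rose by 1.89 ± 0.30, Fcer1g by 2.08 ± 0.40 and C1qc by 1.49 ± 0.23, while Cd68 (0.24), Csf1r (-0.38) and Cx3cr1 (0.57), named after their values were seen, did not pass. Ctss (1.22) was the fifth rise, and it passed in 2 of the 8 leave-one-out fits. Without normoxic replicate 1, 10 of the 15 rose. The platelet factor gene Pf4, which macrophages also express, went from 7.57, 4.58, 6.06 and 5.08 to 9.56, 9.41, 8.33 and 9.18 (3.30 ± 0.58, adjusted p = 0.000681). Hypoxic replicate 3 was the lowest of its group for 7 of the 15 macrophage markers and for 9 of the 20 S100 and annexin genes, and among those that rose for 4 of 5 and 7 of 9; for C1qc, at 7.34, 6.94, 7.10 and 7.22, hypoxic replicate 2 was the lowest. In neuroblasts 11 of the 20 S100 and annexin genes rose and 1 fell, with a median of 1.12. None of the 15 macrophage markers passed there, with a median of 0.48. Whether macrophages contributed to the rises of the S100 list was not tested. In bulk RNA more cells of a type and more RNA per cell cannot be told apart.

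For the other cell types few markers moved. Cldn5, a tight junction gene of endothelium, rose from 8.04, 8.33, 8.53 and 8.66 to 9.96, 10.14, 10.41 and 10.12 (1.77 ± 0.34, adjusted p = 0.00147), whereas Cdh5 (0.78), Flt1 (0.27), Tek (-0.60), Tie1 (-0.14) and Plvap (0.06) did not pass. The second endothelial rise, of Emcn (1.25), passed in 2 of the 8 leave-one-out fits. The T cell gene Cd3g rose by 1.31 ± 0.31 while Cd3e (-0.04) and Cd3d (0.08) did not pass. The glial gene S100b rose by 1.93 ± 0.41, while Sox10 (0.21) and Gfap (0.32) did not pass and Cdh19 fell (-0.90), in 3 of the 8 leave-one-out fits. The fibroblast list held 1 fall, Fbln1 (-1.07 ± 0.22), and its collagen genes differed by -1.21 (Col1a1) and -0.99 (Col1a2) without passing. None of 8 neutrophil, 8 peripheral neuron and 3 erythroid markers passed by limma.

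**Figure D4:**
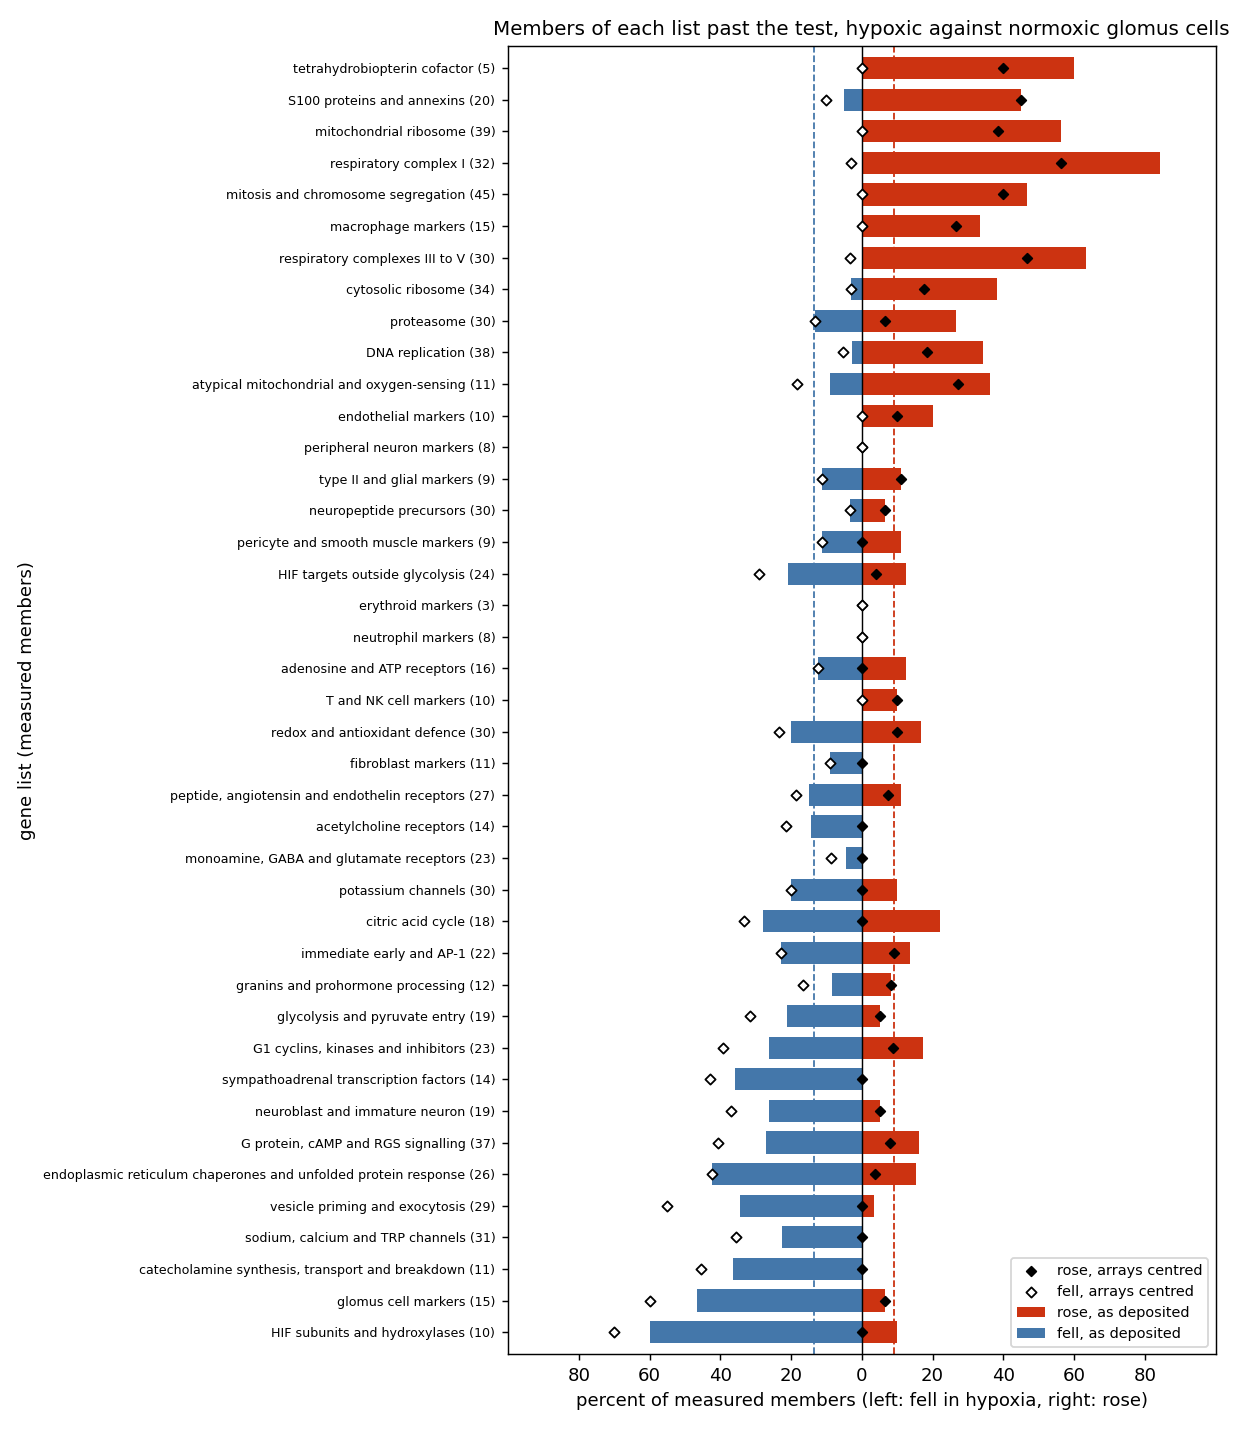
Percent of the measured members of 41 gene lists that rose (right) or fell (left) in hypoxic glomus cells, ordered by median difference, with diamonds for the same shares after each array was centred on its median and dashed lines at 9.1% and 13.5%, the shares over all genes. Complex I stands at 84.4% risen and the HIF subunits at 6 of 10 fallen.

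A number of genes outside the lists were among the 20 largest rises and 20 largest falls that held after centring and without any 1 glomus array, with no overlap of the groups. Such genes with an established symbol numbered 2357, 726 higher and 1631 lower. Sap18, a subunit of a histone deacetylase complex, went from 5.48, 7.32, 7.07 and 7.18 to 9.35, 9.26, 9.49 and 9.45 (2.62 ± 0.34, adjusted p = 5.74e-05). Fxyd1, a regulator of the sodium pump, rose by 2.49 ± 0.41, the chemoattractant gene Rarres2 by 2.41 ± 0.57 and Hscb, a chaperone of iron-sulfur cluster assembly, by 2.36 ± 0.26. Among falls, Arhgap36, an inhibitor of protein kinase A signalling, went from 7.43, 7.59, 8.13 and 7.74 to 5.26, 5.39, 4.79 and 3.63 (-2.96 ± 0.41, adjusted p = 0.000109). The vesicle traffic gene Rab1b fell by 2.44 ± 0.37, and its second probe differed by -1.18 (adjusted p = 0.00381). Sarm1, which executes axon degeneration, went from 6.86, 7.03, 7.42 and 7.35 to 4.67, 4.93, 4.70 and 4.94 (-2.35 ± 0.20, adjusted p = 5.89e-06). The adhesion receptor gene Adgrl1 fell by 2.38 ± 0.23, the stem cell surface gene Prom1 by 2.44 ± 0.20, the dynactin gene Actr1a by 2.33 ± 0.30, the glutaminyl-tRNA synthetase gene Qars1 by 2.33 ± 0.42 and the sodium-proton exchanger gene Slc9a2 by 2.33 ± 0.33.

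The same days of hypoxia were also applied to the neuroblasts, and the interaction asks where the 2 populations differed in their hypoxia difference. It passed for 24 of 30429 probes (0.0789%) and for 18 of 18166 genes (0.0991%). The neuroblast difference was the lower one for 16 probes (0.0526%) and 12 genes (0.0661%) and the higher one for 8 probes (0.0263%) and 6 genes (0.033%). Ntng1, which encodes an axon guidance protein, had values of 2.90, 2.43, 2.63 and 3.06 in normoxic glomus cells and of 2.77, 2.78, 3.35 and 3.24 in hypoxic ones, which overlapped. In neuroblasts it went from 5.74, 5.99, 5.43 and 6.57 to 2.68, 2.91, 2.78 and 2.94, and the interaction was -3.38 ± 0.32 (adjusted p = 0.000166). Kcnd2, the A-type potassium channel gene (-3.36 ± 0.42), the secretin receptor gene Sctr (-3.06 ± 0.38), the cadherin gene Cdh7 (-3.18 ± 0.42) and the lectin gene Chodl (-1.80 ± 0.26) also had the lower difference in neuroblasts. Of the 5, Chodl alone fell in glomus cells too, by 0.60 (adjusted p = 0.03), and that fall missed the threshold in 5 of the 8 leave-one-out fits, with a highest adjusted p of 0.0868. For all 5 the interaction passed after centring and in each of the 8 fits without 1 glomus array.

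In the other direction, Lgr5, a receptor that enhances Wnt signals, stayed at 8.86, 8.88, 8.77 and 8.92 in normoxic and 9.24, 8.80, 8.99 and 9.29 in hypoxic glomus cells, while it went from 5.45, 5.12, 6.36 and 4.92 to 7.64, 8.30, 7.94 and 8.18 in neuroblasts (interaction 2.33 ± 0.35, adjusted p = 0.0123, and 0.0533 after centring). Nusap1, a spindle protein, rose in glomus cells by 1.81 ± 0.22 and in neuroblasts by 3.64, an interaction of 1.82 ± 0.30 (adjusted p = 0.0298). Kcnk3 was lower in hypoxic glomus cells by 0.65 and higher in hypoxic neuroblasts by 0.95, and the lipid desaturase gene Scd was lower by 0.71 and higher by 0.70. Depdc1, another mitotic gene, differed by 0.73 in glomus cells and by 3.07 in neuroblasts (interaction 2.35 ± 0.38). None of these 5 passed after centring, where the adjusted p ran from 0.0533 for Lgr5 to 0.0955 for Kcnk3, and of them Lgr5 alone passed in all 8 fits without 1 glomus array. Over all probes 11 passed after centring, each with the lower difference in neuroblasts. The count fell to 11 without normoxic replicate 2, to 12 without normoxic replicate 3 or 4, and to 13 without hypoxic replicate 2 or 4.

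**Figure D5:**
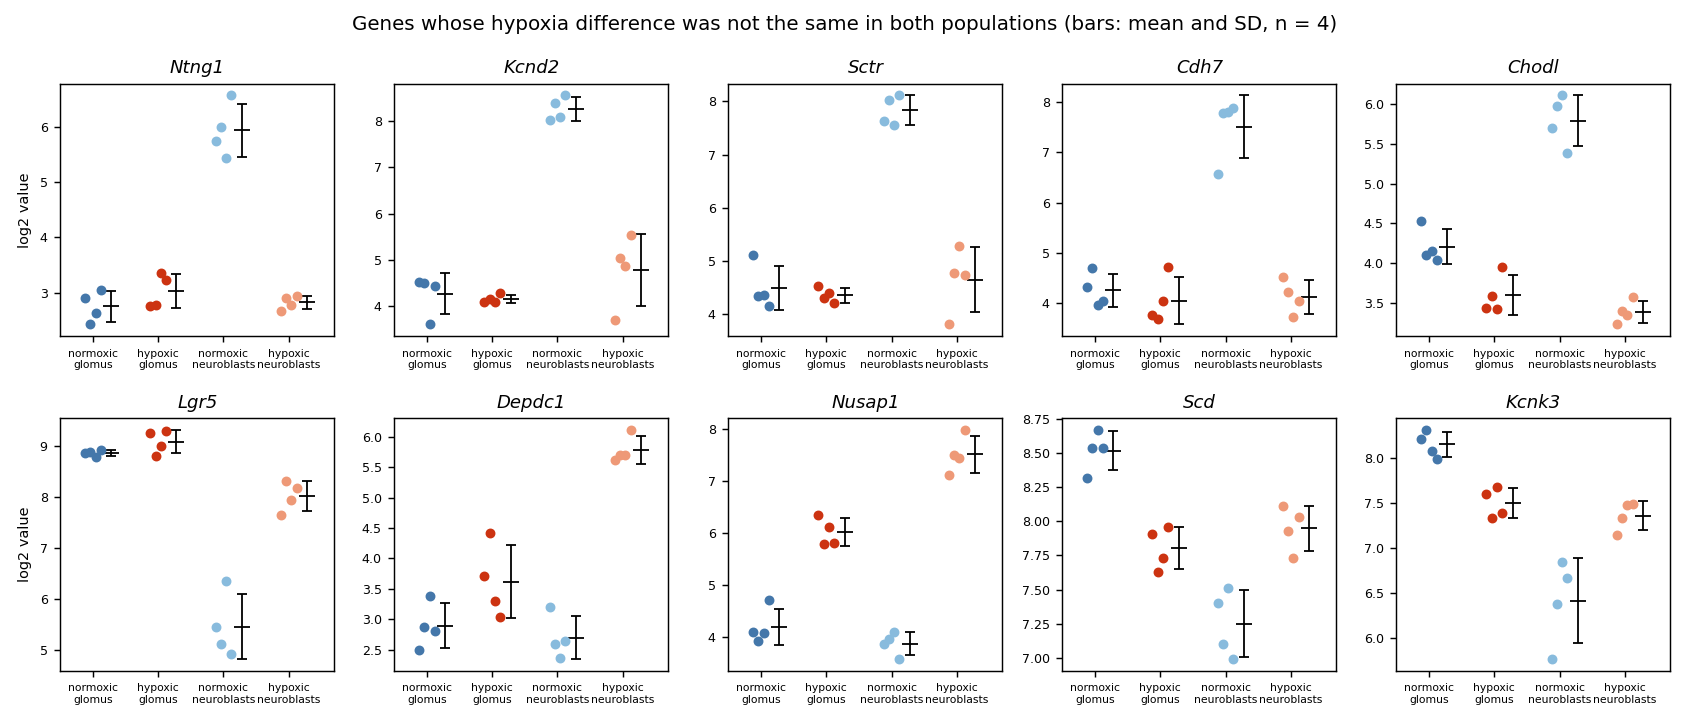
Log2 values of the 10 genes with the smallest interaction p (5 in each direction) on each of the 16 arrays by group, with the mean and SD of 4 arrays beside the points; each panel has its own axis, which does not start at 0. Ntng1, Kcnd2, Sctr, Cdh7 and Chodl have the lower hypoxia difference in neuroblasts, and Lgr5, Depdc1, Nusap1, Scd and Kcnk3 the higher one.

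For the 20 largest rises and 20 largest falls of the glomus comparison kept in every fit, the limma interaction passed for 0 of 40 (8 at an unadjusted p under 0.05), with the smallest adjusted p at 0.244 for Cdkn3, and all 40 differed in the same direction in neuroblasts. The neuroblast differences were 3.70 for S100a10, 3.83 for Cks2, -2.94 for Sstr1 and -2.22 for Arhgap36. Among the marker genes fixed by name they were 4.80 for Rrm2, 2.67 for Npy, 2.29 for Gch1 and -1.96 for Epas1, with interaction adjusted p of 0.246, 0.888, 0.973 and 0.859. The remaining marker, Th, did not pass in glomus cells, and its neuroblast difference is not given here. In neuroblasts 36.3% of all genes passed. Of the 45 mitotic genes 37 rose there with a median difference of 1.64, against 21 and 0.79 in glomus cells, and the interaction passed for 1 of the 45, Nusap1. Pf4 and Aif1, which rose in glomus cells, differed by 0.50 and 0.53 in neuroblasts (interaction adjusted p = 0.379 and 0.47), and none of the 15 macrophage markers passed there.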

How the data were processed

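The deposited table holds 1 value per probe of an Affymetrix rat gene array for each of the 16 samples. Its scale is not stated. The values, given to 2 decimals and running from 0.87 to 13.33, were read as log2 signals; the submitters' processing notes name Transcriptome Analysis Console (no version given), and the authors' background correction and normalization are not stated. The deposited log2 values were used without further scaling. Dispersed, HNK-1 sorted carotid body cells formed 4 groups of 4 samples, as labelled. One mean per group was fitted to all 16 arrays with limma 3.58.1 in R 4.3.3 (lmFit and eBayes, two-sided, 12 residual degrees of freedom), and p-values were adjusted by Benjamini-Hochberg over all 30429 probes, with a threshold of 0.05. Errors are standard errors of the fit unless given as SD. Tables were handled in Python 3.11.15 with pandas 2.3.3, and figures drawn with matplotlib 3.10.9.

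Of the probes 18511 named 1 gene, 575 several and 11343 none in the platform annotation, and only the first kind was given a name. Of them 18394 had a gene identifier in the RefSeq GRCr8 table, which gave the gene spans. For 291 genes with more than 1 probe the one with the highest mean was used. The members and the gene lists were chosen with earlier results of these data known. Named genes were the 20 largest rises and 20 largest falls with an established symbol that passed as deposited, after centring and in each of the 8 fits without 1 glomus array with no overlap of the groups, up to 5 genes per list with the smallest p, all members of lists of 12 or fewer, Th, Epas1, Npy, Gch1 and Rrm2, and 10 genes with the smallest interaction p, 5 in each direction. Genes named outside this rule are marked in the text, apart from second probes.

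Alternatives were median centring, quantile normalization, filters on dim probes, a trended variance, array weights, the glomus arrays alone, the replicate number as a block, averaged probes, stricter thresholds and leaving out each glomus array. Replicate numbers did not pair the samples: the correlation of same-numbered deviations between the 2 glomus groups ran from -0.023 to 0.094. On simulated data of 30429 probes the glomus comparison recovered 48 of 100 probes shifted by 1 on the log2 scale and 95 of 100 shifted by 2, with 10 false calls. The simulated noise was independent between probes, with no shift common to an array and no hypoxia difference outside the shifted probes. On the real arrays 18.9% of probes passed and the medians differed, so these rates need not hold there. The number of arrays limits the precision.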

Additional observations from a re-analysis of the deposited data

Results flagged for a closer look

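In 28 of 458 groups of 4 glomus arrays, taken over the named genes, 1 array lay apart from the other three; chance gives about 1 in 20. Among normoxic arrays, replicate 1 was highest for Chrna4 (4.41), Htr5b (3.86) and lowest for Cd3g (4.36), Hscb (5.46) and Sap18 (5.48). Normoxic replicate 2 was highest for Cdk1 (3.97), Il7r (3.73), S100a13 (9.07) and Sdhd (7.60) and lowest for Pfkfb3 (4.89). Normoxic replicate 3 was highest for Slc29a1 (9.01) and lowest for Kcnd2 (3.61), and replicate 4 was highest for Adm (11.57) and Rab27a (8.09). Among hypoxic arrays, replicate 1 was highest for Cox8a (8.48), Ndufa5 (11.63), Npy1r (6.17) and Tac3 (10.84) and lowest for Arnt (5.86). Hypoxic replicate 2 was highest for Des (4.87) and Tek (5.87) and lowest for Npy (8.99) and Slc6a2 (3.79). Hypoxic replicate 3 was highest for Grin2b (5.11) and Tbx20 (9.44) and lowest for the macrophage genes Ctss (5.77) and Tyrobp (6.06), and replicate 4 was lowest for Cdkn3 (5.74).

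The hypoxia difference was not the same in both populations for 10 of the named genes by the limma interaction, given as the neuroblast difference minus the glomus one. It was -3.38 for Ntng1, -3.36 for Kcnd2, -3.18 for Cdh7, -3.06 for Sctr and -1.80 for Chodl. It was 2.35 for Depdc1, 2.33 for Lgr5, 1.82 for Nusap1, 1.60 for Kcnk3 and 1.41 for Scd. The adjusted p ran from 0.000166 for Ntng1 to 0.0462 for Kcnk3.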

How the results depend on the processing

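The glomus comparison passed 5744 probes, 2852 higher and 2892 lower. With array weights 9490 passed (5439 higher), at an adjusted p under 0.01 3218 (1444 higher, 1774 lower) and with a 2-fold minimum 2760 (1195 higher, 1565 lower). Centring each array left 1370 higher and 3783 lower, and averaging the probes of a gene 1831 higher. Leaving out each glomus array gave 4096 to 5453 in all, 1929 to 2715 higher and 2167 to 2738 lower. The glomus arrays alone gave 7435, and leaving out hypoxic neuroblast replicate 1, which correlated less with its group and was chosen after seeing the data, gave 7232.

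The interaction passed 24 probes, 8 higher and 16 lower in neuroblasts. Centring gave 11 in all and 0 higher, quantile normalization 15 higher, array weights 83 (37 higher, 46 lower), averaged probes 14 higher, an adjusted p under 0.01 5 (0 higher, 5 lower), and leaving out hypoxic neuroblast replicate 1 13 higher. Without each glomus array in turn the counts were 11 to 24 in all, 1 to 8 higher and 9 to 16 lower. With the replicate number as a block, 5986 probes passed in the glomus comparison (2959 higher) and 19 in the interaction (4 higher, 15 lower); the numbers did not pair the samples.

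Of 229 named genes 176 passed, and 156 of these passed under every alternative that gave a value; none changed direction. Of the 53 that did not pass, 22 passed under at least 1 alternative. The causes of these shifts were not tested. Signal over background is not known for these values, so a dim gene with no difference past the threshold may have lain below detection. For the same reason the size of a rise from dim values is uncertain.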
